A study of Mus musculus with 12 samples.

Results

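Spheres derived from fibroblasts were compared with spheres grown from brain tissue and from pluripotent cells, gene by gene, on 7 of the 12 microarrays of a mouse series. One side held 4 arrays of fibroblast-derived neurospheres. Adult fibroblasts were the source of replicate 1, which was given EGF plus cAMP, and of replicate 2, which was given the cytokine LIF (leukaemia inhibitory factor). Embryonic fibroblasts were the source of replicate 3, which was given LIF, and of replicate 4, which was given LIF plus cAMP. The other side held 3 arrays of established neurospheres, taken as 1 group: 1 array of spheres grown out of GE tissue (ganglionic eminence, where ventral forebrain progenitors divide) at embryonic day 14, 1 array of secondary neurospheres from the iPS line 38C2, and 1 array of secondary neurospheres from the ES line EB3. Secondary neurospheres are grown anew from cells of primary spheres. All neurospheres were kept in MHM medium, and the mice were C57BL/6 except for the pluripotent lines. The labels give no added factor for the established neurospheres, and for the fibroblast-derived ones neither a transgene nor the way of conversion. The other 5 arrays (adult skin fibroblasts, iPS cells, ES cells and 2 of primary neurospheres) serve below as points of reference only.

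Neural stem cells of the embryonic forebrain are radial glia and their progeny. They are held undifferentiated by Notch signalling and SoxB and Hes factors, and they make neurons first and astrocytes and oligodendrocytes later. In culture with growth factors they form floating spheres that mix stem cells, progenitors and early glia. Pluripotent cells share the factor Sox2 with them but differ in Oct4, Nanog and the network around these, and in an epithelial form with E-cadherin in place of N-cadherin.

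Each value is a deposited MAS5 signal, scaled so that the trimmed mean of every array is 100, and signals under 20 are dim. Between 45.4% and 47.1% of probe sets reached 20 on the fibroblast-derived arrays, and between 45.7% and 49.1% on the established ones. Across genes, Pearson's r on log2(signal + 5) was 0.905 to 0.975 within the fibroblast-derived arrays, 0.88 to 0.95 within the established ones and 0.687 to 0.792 between the sides, as a description, since genes are not replicates. The labels do not say that arrays came from separate cultures, and the arrays of a side differ in origin, line or medium. The p-values below therefore measure only the spread between these arrays, and the number of arrays limits the precision. Signals are given in the order of replicates 1, 2, 3 and 4, then GE, iPS-derived and ES-derived. Differences are on the log2(signal + 5) scale, fibroblast-derived minus established, with the standard error (SE) and the Benjamini-Hochberg adjusted p of limma over all genes. This scale understates the change of dim genes. The label of induced neural stem cells was set against marker genes: of 25 neural stem cell transcription factors none was higher and 14 were lower than in the established neurospheres, and Pou5f1 was at 1787 to 2218 beside 2462 in ES cells. The arrays are therefore named here by origin, as fibroblast-derived neurospheres.

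Of 13650 genes tested, 4768 (34.9%) were called at an adjusted p under 0.05. Higher in the fibroblast-derived neurospheres were 2494 genes (18.3%), and lower were 2274 (16.7%). The arrays of the sides did not overlap in 4614 of the called genes, and they did not overlap in 44% of all genes tested. A log2 difference of at least 2 was seen in 767 of the higher and 741 of the lower genes. The median difference over all genes was 0.05. When the GE array and the 2 secondary arrays were each compared with the fibroblast-derived arrays, 1345 genes (9.85%) were higher than both and 1227 (8.99%) were lower than both. These contrasts share the fibroblast-derived arrays, so the counts are not independent of each other. Both shares are the background against which the gene groups below are read.

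**Figure D1:**
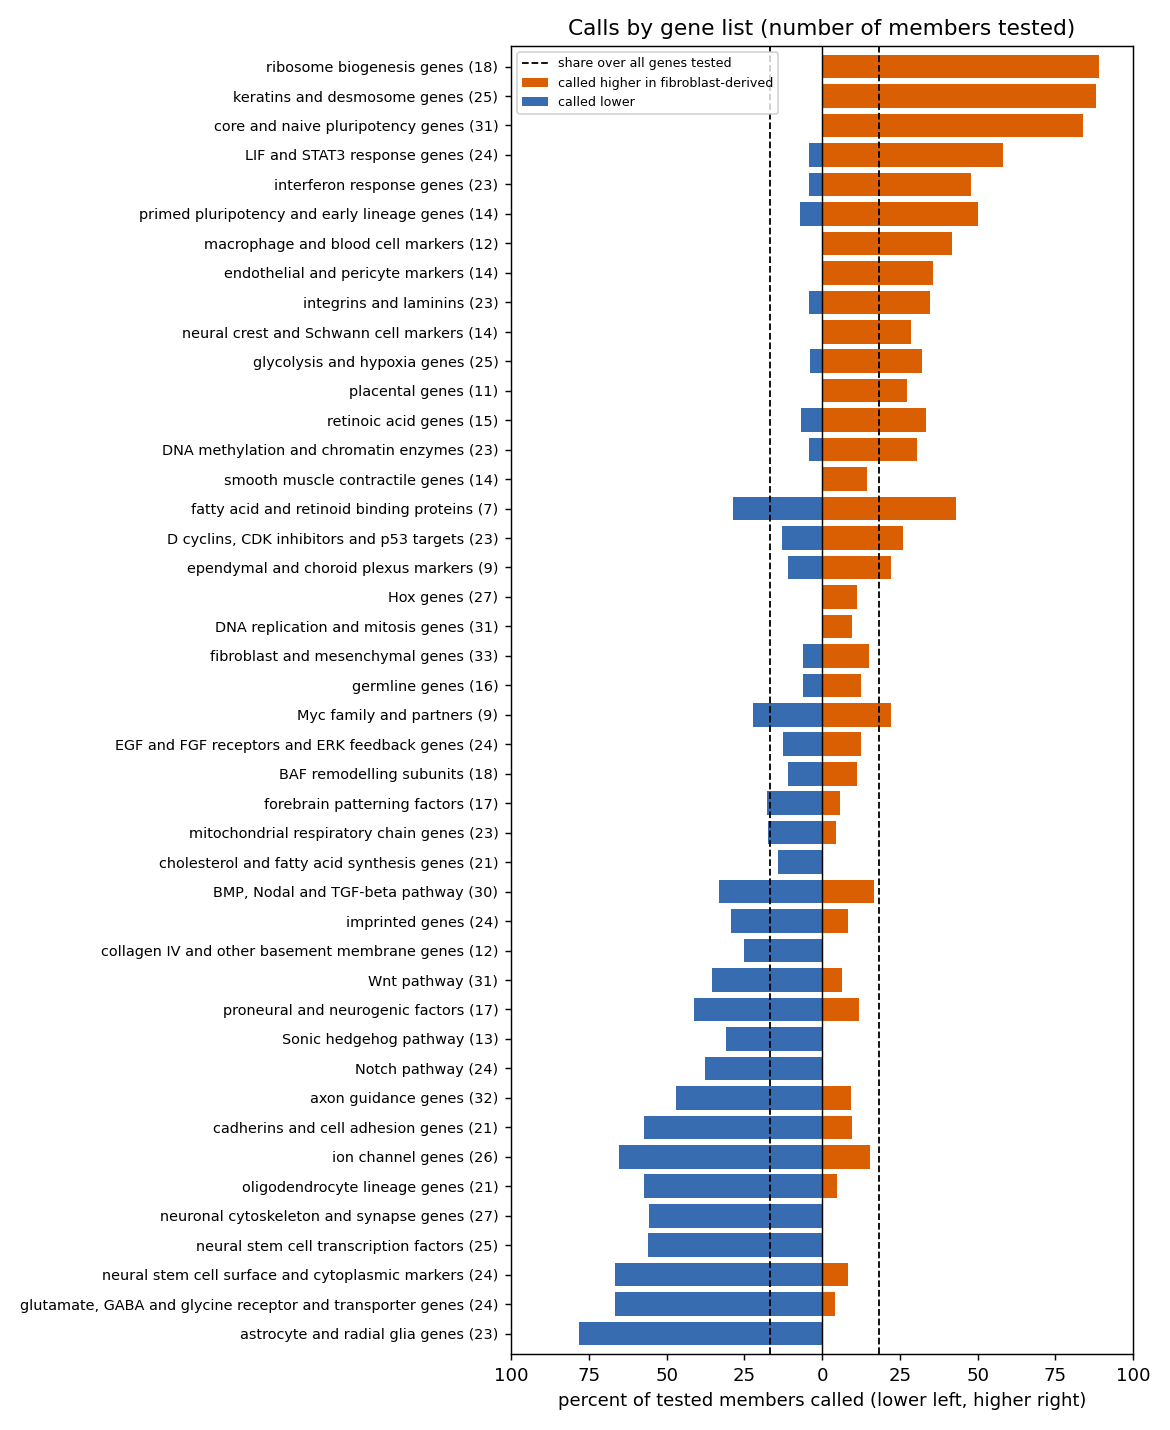
Percent of the tested members of each of 44 gene lists that were called higher (to the right) or lower (to the left) in fibroblast-derived neurospheres, with the number tested in brackets. Dashed lines mark the shares over all genes, 18.3% higher and 16.7% lower. Glial, receptor and neural stem cell lists extend to the left, and ribosome biogenesis, keratin and pluripotency lists to the right.

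The 12 genes with the lowest differences did not overlap between the sides, as the rule that named them requires. Gpm6a, a membrane glycoprotein of neurons and their precursors, stood at 1.3, 25.7, 1.6 and 4.7 on the fibroblast-derived arrays and at 3838, 2684 and 1954 on the established ones. The sides were far apart, replicate 2 being the highest fibroblast-derived array, with a log2 difference of -8.01 ± 0.56 (SE, adjusted p = 9.6e-05). The GABA transporter gene Slc6a11 was at 0.5, 2, 1.8 and 0.6 against 618, 398 and 408 (-6.25 ± 0.26), and the glutamate transporter gene Slc1a3 (GLAST), a defining gene of radial glia, at 15, 31.7, 22.3 and 28.1 against 2777, 1364 and 1666 (-6.02 ± 0.31). Neither gene reached 40 on any fibroblast-derived array. Ncan and Bcan encode neurocan and brevican, proteoglycans of the brain's matrix. Ncan was at 16.4, 15.5, 5.1 and 13.4 against 2142, 1922 and 1357 (-6.72 ± 0.31) and Bcan at 72.8, 4.8, 16 and 17.9 against 5385, 1503 and 2032 (-6.69 ± 0.70). Sparcl1, a secreted astrocyte protein, was at 2.1, 13.4, 67.5 and 57 against 3488, 3089 and 3933 (-6.98 ± 0.76), with the embryonic-derived arrays above the adult-derived ones and all 4 below the established arrays. Astn1, which neurons use to migrate along glia, was at 1.3, 9.5, 3.7 and 4 against 669, 1574 and 1369 (-6.95 ± 0.39). The same separation held for Mmd2 (-7.08 ± 0.73), the protease inhibitor gene Timp4 (-6.85 ± 0.50), the F-spondin gene Spon1 (-6.56 ± 0.88), the noncoding RNA gene Pantr1 (-6.34 ± 0.62) and the mitochondrial glutamate carrier gene Slc25a18 (-6.11 ± 0.42). Spon1 ranged from 7.3 to 121 on the fibroblast-derived arrays, replicate 2 being the high one, against 931 to 4225 on the established ones. In RNA of whole cultures, fewer cells of a type and less RNA per cell cannot be told apart.

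**Figure D2:**
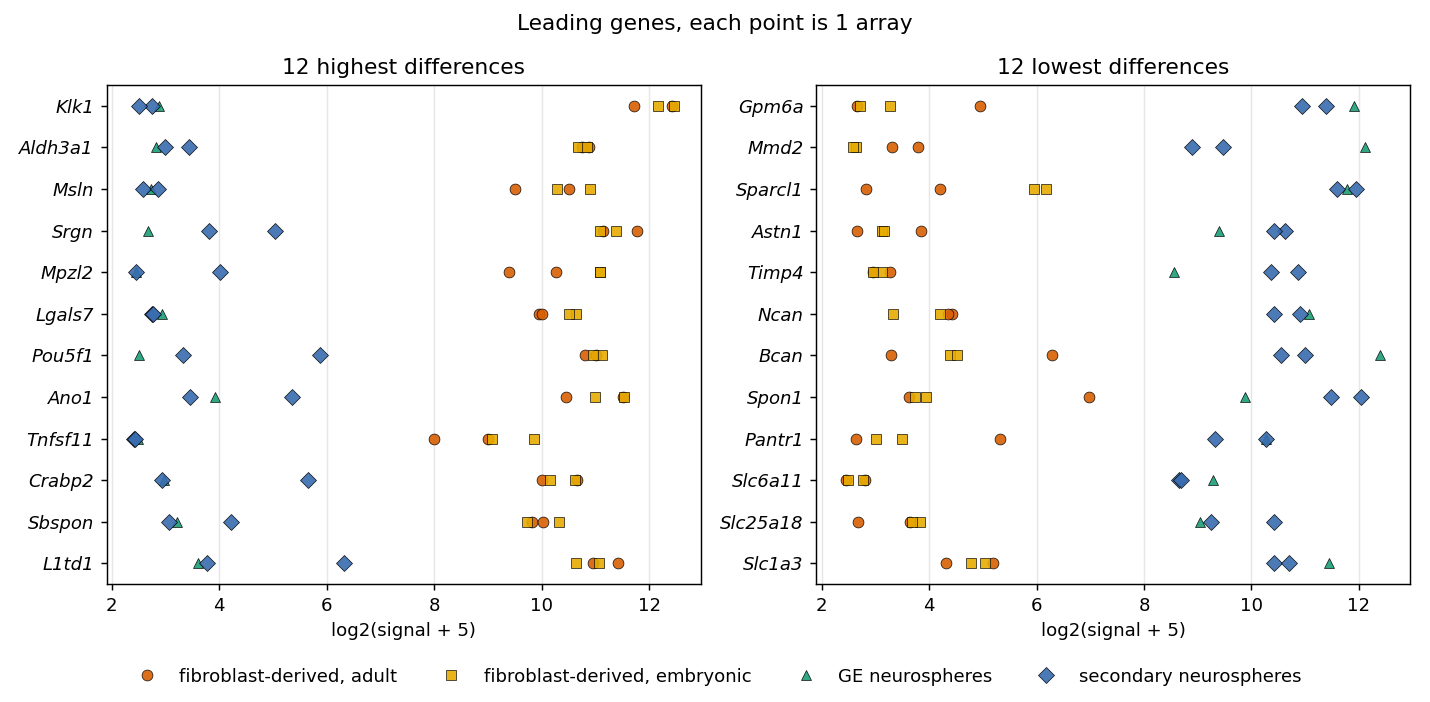
Signals of the 12 genes with the highest and the 12 with the lowest log2 differences, each point 1 array, on a log2(signal + 5) axis. Orange and yellow symbols are fibroblast-derived neurospheres, green and blue ones established neurospheres. The sides do not overlap in any of the 24 genes, Klk1 at 3384 to 5619 against 0.7 to 2.4 and Gpm6a at 1.3 to 25.7 against 1954 to 3838.

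Transcription factors of neural stem cells were lower in many cases and higher in none. Of 25 tested, 14 were lower and 0 higher, with a median log2 difference of -1.98 beside 0.05 over all genes, and 13 were lower than the GE and the secondary neurospheres alike. The glial factor Sox8 was at 4.9, 3.4, 3.8 and 5.8 against 1368, 389 and 393 (-5.99 ± 0.45, adjusted p = 0.000113). Pou3f3 (Brn1), a factor of upper-layer neuron precursors, was at 12.8, 66.5, 11.2 and 12.8 against 1479, 1434 and 906 (-5.66 ± 0.53), replicate 2 standing above the other fibroblast-derived arrays. Sox9, needed for glial fate and stem cell upkeep, was at 26.8, 19, 12.4 and 20 against 484, 329 and 214 (-3.78 ± 0.33), dim or nearly so on every fibroblast-derived array. Nr2f1 (COUP-TFI) was bright on the fibroblast-derived side at 243, 349, 222 and 218, but was lower than on the established arrays at 1082, 1163 and 1350.3 (-2.22 ± 0.20). Of 17 proneural and neurogenic factors, 7 were lower and 2 higher. Olig2, a factor of ventral progenitors and the oligodendrocyte lineage, was at 25.8, 36.1, 141 and 116 against 1032, 1689 and 922 (-4.10 ± 0.57), and Olig1 at 79.6, 231, 309.9 and 208 against 3133, 3825 and 3253 (-4.15 ± 0.40). Sox4, which acts in young neurons, was at 2042, 1668, 1098 and 658 against 6228, 5599 and 5148 (-2.17 ± 0.36). The members that were higher were Eomes (Tbr2), a gene of intermediate progenitors and also of early mesendoderm, at 26, 52, 89.8 and 104 against 5.9, 5.8 and 1.7, and Neurog1, at 1.5, 34, 105 and 40.3 against 0.3, 1.3 and 0.6. Neurog1 was not called without replicate 2, 3 or 4 or the GE, iPS-derived or ES-derived array (adjusted p = 0.0942 to 0.106), and its other probe set had the opposite sign.

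Sox2, Sox1 and Pax6 were not called. Sox2, shared by neural and pluripotent stem cells, was at 85.6, 791, 1826 and 2092 against 3703, 2628 and 2409. All 4 signals lay below those of the established arrays, and the difference of -1.98 ± 1.0 had a 95% interval of -4.28 to 0.32 (adjusted p = 0.157). Replicate 1, from adult fibroblasts with EGF and cAMP, was the low one. Sox1 was at 287, 272, 65.5 and 47.2 against 71.7, 681 and 516 (-1.20 ± 0.91, adjusted p = 0.334), with GE close to the embryonic-derived arrays. Pax6, a factor of dorsal radial glia, was at 31.6, 29.7, 24.1 and 8.7 against 248, 56.8 and 43.2 (-1.77 ± 0.61, adjusted p = 0.0564). Pax6 was called without the ES-derived array (adjusted p = 0.0434). For these genes the missing call does not show equal levels.

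Surface and cytoplasmic markers of neural stem cells were lower in 16 of 24 and higher in 2, with a median of -2.09. Fabp7 (BLBP), a fatty acid-binding protein of radial glia, was bright on the established arrays at 7197, 6338 and 6348 and stood at 411, 518, 79.8 and 48.1 on the fibroblast-derived ones (-5.23 ± 0.78, adjusted p = 0.00202). The adult-derived pair was above the embryonic-derived pair, and both pairs were far below. Cspg5 (neuroglycan C) was at 15.7, 16.6, 14.4 and 19.4 against 1460.1, 461 and 428 (-4.96 ± 0.42) and the anion channel gene Ttyh1 at 84.9, 80.2, 62 and 42.8 against 2289.5, 816 and 1093 (-4.18 ± 0.38). Ptprz1, a receptor phosphatase of radial glia, was at 189, 43.5, 553 and 477 against 3177, 2274 and 2054 (-3.46 ± 0.78). Its level on the fibroblast-derived side depends on the probe set: another read 5.3, 4.9, 7.9 and 5.6 against 2477, 2085 and 1861, a difference of -7.62, and the other 117, 24.2, 240.0 and 206 against 2261, 1445 and 1203 (-3.77). In none of the 3 did the sides overlap. Egfr, the receptor through which EGF expands late progenitors, was at 221, 257, 161 and 138 against 1034, 735 and 674 (-2.05 ± 0.26), without overlap in this probe set. Another bright one overlapped, at 222, 355, 139 and 107 against 330.4, 269.7 and 247 (-0.58), with replicate 2 above the established arrays, and the 2 dimmer ones differed by -0.27 and -0.35. Msi1 (Musashi1), an RNA-binding protein of neural progenitors, was at 92, 91.5, 70.6 and 75.8 against 163, 292 and 336 (-1.56 ± 0.27). The intermediate filament gene Vim was bright throughout and differed little, at 4483, 4129, 3569 and 3144 against 5290.1, 5687 and 6079 (-0.58 ± 0.15, adjusted p = 0.0188). Vim was not called without replicate 3 or the iPS-derived or ES-derived array (adjusted p = 0.0515 to 0.0659). The 2 members that were higher were the tetraspanin gene Cd9, at 2151, 1917, 2955 and 3409 against 1259, 589 and 1073 (1.45 ± 0.30), and Mcam (CD146), at 146, 114, 161 and 140.3 against 68.3, 29.6 and 30.1 (1.69 ± 0.30). Nestin (Nes), at 150.4, 108, 65.1 and 94.3 against 135, 279.6 and 175 (-0.87 ± 0.33, adjusted p = 0.0769), and Prom1 (CD133), at 241, 678, 273 and 781 against 392, 698 and 2638 (-1.05 ± 0.68, adjusted p = 0.264), were not called, and their arrays overlapped. Nes was called without replicate 1 or the GE array (adjusted p = 0.0446 to 0.0469).

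**Figure D3:**
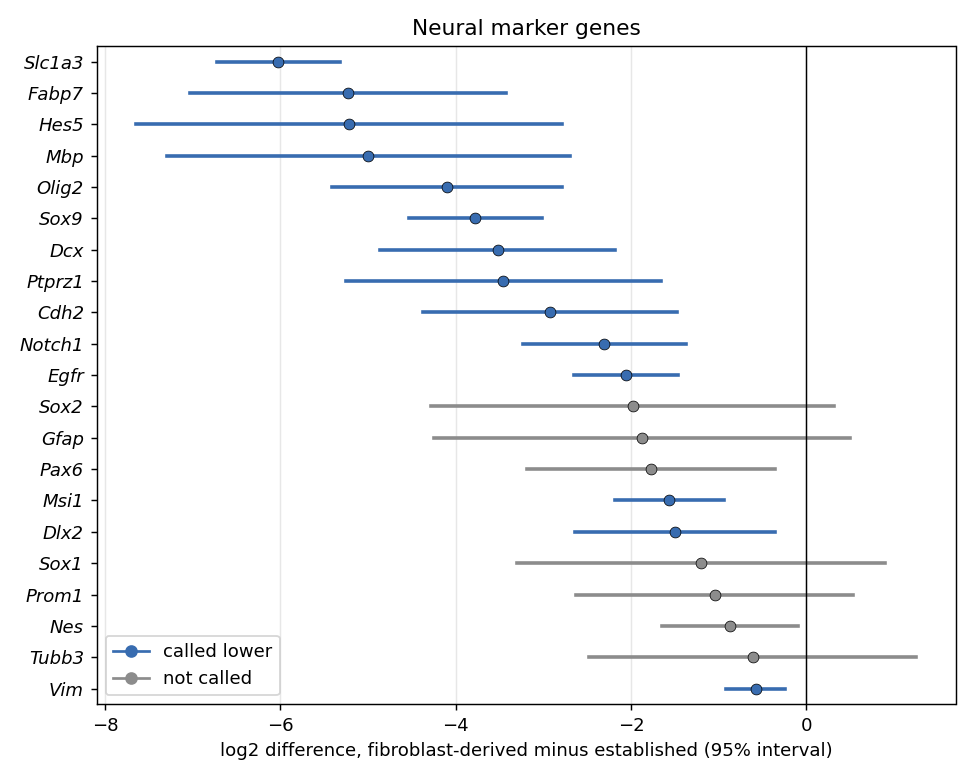
Log2 differences (fibroblast-derived minus established) of neural marker genes with 95% intervals, blue where called lower and grey where not called. Slc1a3, Fabp7 and Hes5 have the lowest differences, while the grey bars of Sox2, Sox1, Prom1, Gfap and Tubb3 cross 0.

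The established neurospheres also had more transcript of Notch pathway genes, which hold neural stem cells undifferentiated. Of 24 tested, 9 were lower in the fibroblast-derived neurospheres and 0 higher. The receptor gene Notch1 was at 302, 99.9, 153 and 108 against 707, 553 and 1116 (-2.30 ± 0.40), and Notch3 at 98.4, 140.3, 145 and 159 against 406, 409 and 597 (-1.76 ± 0.22). Among the targets, Hes5 was at 59.7, 31.1, 0.7 and 1.9 against 1859, 782 and 181 (-5.22 ± 1.05, adjusted p = 0.00751), Hey1 at 48.1, 45.3, 34 and 58 against 395, 603 and 641 (-3.41 ± 0.25) and the feedback gene Nrarp at 102, 122, 78.6 and 88.5 against 279.6, 658 and 379 (-2.04 ± 0.30). Hes5 was not only lower but near 0 on the embryonic-derived arrays, and it was lowest of the established arrays in the ES-derived spheres. Lfng, a glycosyltransferase that tunes Notch receptors, was also lower (-1.45 ± 0.23). The nuclear co-activator gene Maml1 stood at 310.3, 326, 301 and 289 against 253, 311 and 298, with a 95% interval of -0.23 to 0.43.

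Other signalling lists were mixed. In the Sonic hedgehog pathway, which patterns the ventral forebrain, 4 of 13 genes were lower and 0 higher. The number lower than GE and secondary neurospheres alike was 0. Shh itself was at 4, 29.8, 10.5 and 5.6 against 13.6, 2729 and 4211, a difference of -5.31 ± 1.72 (adjusted p = 0.0451). The secondary arrays were high, and GE lay within the fibroblast-derived range. Shh was not called without replicate 1, 2, 3 or 4 or the iPS-derived or ES-derived array (adjusted p = 0.0693 to 0.145). The receptor gene Ptch1 was at 426, 461, 559.5 and 564 against 651, 1846 and 2475 (-1.52 ± 0.41), the GE array again close to the fibroblast-derived ones. Ptch1 was not called without replicate 1 or 2 or the iPS-derived or ES-derived array (adjusted p = 0.0531 to 0.0799). The co-receptor gene Gas1 was at 111, 326, 89.5 and 270.3 against 587, 852 and 584 (-1.91 ± 0.45). Gas1 was not called without the iPS-derived array (adjusted p = 0.0521). The number of Sonic hedgehog pathway genes called lower was 0 without the iPS-derived array, 1 without the ES-derived array or replicate 2 and 2 without replicate 1, replicate 3 or replicate 4. Of 31 Wnt pathway genes, 11 were lower and 2 higher, and 7 were lower and 0 higher than GE and secondary neurospheres alike. The ligand genes Wnt7a (2.9, 22.6, 1.3 and 6.4 against 98.2, 172 and 143) and Wnt5a (25.8, 26.2, 41.1 and 62.8 against 178, 220.3 and 401) and the receptor genes Fzd9 (-2.84 ± 0.26) and Fzd2 (-1.80 ± 0.21) were lower, while the receptor gene Fzd5, at 314, 366, 361 and 245 against 119, 42.7 and 42.4 (2.30 ± 0.36), and Notum, which cuts a lipid from Wnt proteins (1.67 ± 0.38), were higher. Of 30 genes of the BMP, Nodal and TGF-beta pathways, 10 were lower and 5 higher, but only 1 was lower and 1 higher than GE and secondary neurospheres alike. The BMP receptor genes Bmpr1b, at 12.9, 10.7, 6 and 4.9 against 487, 63.2 and 114 (-3.58 ± 0.63), and Bmpr2 (-0.96 ± 0.18) were lower, and the activin antagonist gene Fst was higher (2.37 ± 0.64), at 123, 130.2, 100.2 and 545 against 11.6, 42.3 and 46.5. Fst was not called without the GE array (adjusted p = 0.0639). When GE and secondary neurospheres were compared separately, Bmpr2 and Fst were called against neither.

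Glial genes gave the list with the highest share of calls toward the established side. Of 23 astrocyte and radial glia genes, 18 were lower than in the established neurospheres and 0 higher, and all 18 were lower than GE and secondary neurospheres alike. The arrays did not overlap in any of the 18, as in 4614 of all 4768 called genes. The median was -3.32. Slc1a2 (GLT-1), the main glutamate transporter of astrocytes, was at 10.5, 7.3, 8 and 13.9 against 1455, 362 and 879 (-5.73 ± 0.44). Glul, the glutamine synthetase gene, was at 643, 729.9, 576 and 698 against 3409, 2622 and 3561 (-2.26 ± 0.15, adjusted p = 9.43e-05), a tight difference in bright signals. The brain aldolase gene Aldoc was at 378, 464, 753 and 824 against 3962, 2888 and 3121 (-2.51 ± 0.29) and Fgfr3 at 119, 19.6, 61.1 and 66.3 against 809.7, 463 and 360.0 (-3.07 ± 0.53). Gfap, the filament gene of mature astrocytes, was at 3.9, 10.4, 5.7 and 14.2 against 357, 9.8 and 15, so it was bright on the GE array only, and it was not called (-1.87 ± 1.03, adjusted p = 0.191). The mean log2(signal + 5) of the astrocyte list was 5.44 to 6.33 on the fibroblast-derived arrays, 8.41 and 8.96 on the secondary arrays and 10.5 on the GE array, beside 5.25 in adult fibroblasts, 5.52 in iPS cells and 5.08 in ES cells.

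The oligodendrocyte list had 21 genes tested, 12 of them lower and 1 higher, with a median of -3.01. Nkx2-2, a factor of oligodendrocyte precursors, was at 2.4, 10.7, 1.3 and 2.8 against 222, 275 and 305 (-4.96 ± 0.35), dim on every fibroblast-derived array and close together on the established ones. The myelin gene Mbp was at 11, 26.2, 78.5 and 51.1 against 6578, 964 and 299 (-4.99 ± 1.0), highest on the GE array by far. Probe sets of Mbp disagreed: 6 of 8 were lower and 2 higher. The gene that was higher was Mal, which encodes a proteolipid of myelin and also of apical membranes in epithelia, at 859, 591, 926 and 1133 against 33, 19.2 and 20.5 (4.91 ± 0.27, adjusted p = 3.75e-05). The sides were far apart for Mal, in the direction opposite to the rest of its list.

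Neuronal genes were lower too, in 15 of 27 tested, with 0 higher and a median of -1.63. Syt11, a synaptotagmin gene, was at 176, 78, 62.1 and 53.1 against 3347, 1369 and 1765 (-4.52 ± 0.44), and the synaptic adhesion gene Nlgn1 at 4.5, 1.3, 1.9 and 1.8 against 176, 127 and 154 (-4.42 ± 0.26, adjusted p = 5.37e-05). Dcx, which binds microtubules in migrating neurons, was at 43.8, 36.1, 6.2 and 9.6 against 202, 449 and 216 (-3.52 ± 0.58), and Stmn3 at 33.8, 85.2, 76 and 114 against 520.0, 1601 and 606 (-3.40 ± 0.48). The class III tubulin gene Tubb3 was not called, at 138, 148, 60.8 and 39.7 against 32.4, 429.8 and 152, the GE array being the lowest of all 7. The mean of the neuronal list on the fibroblast-derived arrays was 5.48 to 5.82, beside 5.35 in iPS cells, 5.70 in ES cells and 4.29 in adult fibroblasts, and it was 6.56 on the GE array and 7.22 and 8.06 on the secondary ones.

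Genes for transmitter handling and membrane excitability were among those with the widest gaps. Of 24 receptor and transporter genes for glutamate, GABA and glycine, 16 were lower and 1 higher, with a median of -2.44. The AMPA receptor gene Gria2 was at 5.8, 4.3, 2.4 and 5.3 against 361, 396 and 418 (-5.40 ± 0.23), and the metabotropic receptor genes Grm5 and Grm3 were at 0.5, 0.2, 1 and 1 against 396, 344 and 174 (-5.69 ± 0.32) and 1.5, 0.7, 4.1 and 0.3 against 346, 224 and 116 (-5.04 ± 0.40). All 3 were at the floor on every fibroblast-derived array. Slc17a6 (VGLUT2), which fills vesicles with glutamate, was higher at 100.4, 246, 103 and 27.6 against 0.3, 40.7 and 6.9 (2.79 ± 0.85, adjusted p = 0.0367), with overlapping arrays. Slc17a6 was not called without replicate 1, 2 or 3 or the GE or ES-derived array (adjusted p = 0.07 to 0.0985). Of 26 ion channel genes, 17 were lower and 4 higher. The A-type potassium channel genes Kcnd3, at 12.3, 11.1, 7.9 and 7.5 against 463, 674 and 622 (-5.33 ± 0.23), and Kcnd2, at 3.9, 0.5, 10.7 and 11.7 against 746, 563 and 425 (-5.74 ± 0.43), and the AMPA receptor auxiliary gene Cacng4 (-4.89 ± 0.45) were lower. Among the channel genes that were higher were the chloride channel gene Ano1, at 2914, 1407, 2954 and 2044 against 10.2, 6 and 36.1 (6.88 ± 0.47), the calcium-activated potassium channel gene Kcnn4, at 191, 82.4, 113 and 351 against 1, 10.3 and 1.6 (4.27 ± 0.54), and Kcnk5 (2.72 ± 0.46).

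Adhesion and guidance genes changed in both directions. Of 21 cadherin and adhesion genes, 12 were lower and 2 higher. N-cadherin (Cdh2), which joins neuroepithelial cells, was at 388, 443, 129.9 and 66.2 against 1108, 1715 and 1882 (-2.92 ± 0.63, adjusted p = 0.00966), lowest on the embryonic-derived arrays. E-cadherin (Cdh1), which joins epithelial and pluripotent cells, was at 529, 937, 1021 and 1395 against 5.2, 31.6 and 65.5 (4.95 ± 0.62, adjusted p = 0.000945), highest on replicate 4. R-cadherin (Cdh4, -3.15 ± 0.36) and the neuronal adhesion genes Nrcam (-3.86 ± 0.21) and Cntn1 (-4.86 ± 0.38) were lower, and Icam1, a ligand for leukocyte integrins, was higher (2.28 ± 0.46). The hyaluronan receptor gene Cd44 was at 1668, 2592, 2679 and 2064 against 195, 849.7 and 1580.4 and not called (adjusted p = 0.0561), although all 4 arrays lay above the established ones. Cd44 was called without the GE or ES-derived array (adjusted p = 0.0179 to 0.0479). Of 32 axon guidance genes, 15 were lower and 3 higher. The semaphorin receptor gene Plxnb1 was at 38.8, 48.4, 34 and 32.5 against 345, 285 and 370.4 (-2.97 ± 0.21), Sema6a at 26.2, 27.7, 22.1 and 19 against 185, 185 and 209 (-2.79 ± 0.21) and Ephb1 at 23, 11.3, 4.5 and 7.4 against 191, 179 and 189 (-3.65 ± 0.37). The members that were higher were Sema3e, at 136, 173, 291 and 266 against 13.2, 25.7 and 28.4 (3.0 ± 0.34), the ephrin gene Efna5 (2.64 ± 0.58) and its receptor gene Epha7 (2.50 ± 0.78), for both of which GE was the lowest array. Epha7 was not called without replicate 1, 2, 3 or 4 or the iPS-derived array (adjusted p = 0.0659 to 0.0887).

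The genes with the highest differences were mostly near the floor on all established arrays and bright on all 4 fibroblast-derived ones. Klk1, a tissue kallikrein, was at 3384, 5517, 5619 and 4604 against 2.4, 1.7 and 0.7, a log2 difference of 9.48 ± 0.22 (adjusted p = 1.22e-06). It was at 0.3 in adult fibroblasts, 34.3 in iPS cells and 27.2 in ES cells, so no reference array came near it. Its other probe sets differed by 9.36, 5.87 and 0.54, the last at 71.3, 64.5, 48.2 and 51.5 against 50.2, 35.5 and 31.9, with overlapping arrays. Kallikrein genes are close copies of each other, and a probe set may not tell them apart. Among the others, 4 are genes of epithelia: the aldehyde dehydrogenase gene Aldh3a1, at 1876, 1725, 1625 and 1833 against 2.1, 2.9 and 5.9 (7.70 ± 0.19), the mesothelin gene Msln, at 723, 1459.6, 1252 and 1899.6 against 1.6, 1 and 2.3 (7.58 ± 0.32), the galectin gene Lgals7, at 981, 1022, 1594 and 1448 against 2.6, 1.7 and 1.8 (7.46 ± 0.23), and Mpzl2, at 1233, 664, 2169 and 2184 against 0.5, 0.5 and 11.2 (7.48 ± 0.53). Aldh3a1, Msln and Lgals7 were under 40 on the fibroblast, iPS and ES arrays, while Mpzl2 was at 626 in iPS cells and 230.3 in ES cells. Srgn, a granule proteoglycan, was at 2244, 3502, 2686 and 2182 against 1.4, 27.9 and 9 (7.51 ± 0.49). The cytokine gene Tnfsf11 (RANKL) was at 251, 505, 929.6 and 536 against 0.6, 0.3 and 0.4 (6.54 ± 0.40), the established arrays being under 1. Sbspon was at 897, 1037, 1279 and 845 against 4.3, 3.4 and 13.6 (6.47 ± 0.31). Pou5f1, Ano1, Crabp2 and L1td1 complete the 12 and are given with their groups.

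Genes of the pluripotency network were higher as a group. Of 31 core and naive genes, 26 were higher and 0 lower, and 20 were higher than GE and secondary neurospheres alike. Of the 26, 23 did not overlap, beside 4614 of all 4768 called genes. The median was 3.40. Pou5f1 (Oct4) was at 1787, 2069, 2218 and 1981 against 0.7, 5 and 53.4 (7.07 ± 0.69, adjusted p = 0.000339). The 4 signals were close to each other and not far below those of the iPS cells (2818) and ES cells (2462), while the ES-derived secondary array was the highest of the established ones. L1td1, an RNA-binding protein of pluripotent cells, was at 1977, 2736, 2139 and 1598 against 7.1, 8.6 and 74.7 (6.46 ± 0.62). Nanog was at 145, 402, 1454 and 1845 against 2.6, 3.9 and 29.7 (5.58 ± 0.93), Tdgf1 (Cripto), a co-receptor for Nodal, at 240.0, 656, 1574 and 1479 against 1.3, 2.6 and 11.9 (6.40 ± 0.68) and Fgf4 at 108, 283, 557 and 628 against 7.3, 0.8 and 12.2 (4.94 ± 0.64). In all 3 the adult-derived arrays lay below the embryonic-derived ones and replicate 1 lowest. The zinc finger gene Sall4 (5.87 ± 0.57), the F-box gene Fbxo15 (5.90 ± 0.55) and Eras (5.50 ± 0.49) were also higher, with ranges of 288 to 846, 339 to 1018 and 217 to 621 against 0.7 to 20.1, 1 to 21.1 and 0.5 to 9.9. Lin28a, which blocks let-7 maturation, was at 16.3, 263, 198 and 108 against 0.5, 2.5 and 12.5 (3.57 ± 0.86), replicate 1 near the ES-derived array. Zfp42 (Rex1), a naive marker, was at 5.2, 79.1, 346 and 476 against 2.5, 4.4 and 62.6 and not called (2.70 ± 1.38, adjusted p = 0.162), replicate 1 being the low one. Zfp42 was called without replicate 1 (adjusted p = 0.0255). The list averaged 6.69 on replicate 1, 8.09 on replicate 2, 8.99 on replicate 3 and 9.08 on replicate 4, beside 9.74 in iPS cells, 10.2 in ES cells, 3.94 on the GE array and 4.21 and 5.46 on the secondary arrays. The set of primed and early lineage genes had 7 of 14 higher and 1 lower. Nodal was at 56.7, 218, 199 and 244 against 9, 10.4 and 13.3 (3.36 ± 0.48), its antagonist Lefty1 at 43.9, 310.1, 420.2 and 500.2 against 14.9, 6.4 and 35.3 (3.52 ± 0.83) and the endoderm factor Gata6 at 29.8, 49.6, 52.9 and 54.8 against 3.8, 5.9 and 12.4 (2.09 ± 0.34). Lefty1 was not called without the iPS-derived array (adjusted p = 0.0505). The number of primed pluripotency and early lineage genes called higher was 4 without the iPS-derived array. Of 16 germline genes 2 were higher and 1 lower, both below the shares over all genes. The number of germline genes called higher was 1 without the iPS-derived array, replicate 2, replicate 3 or replicate 4 and 8 without replicate 1.

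Placental genes set the embryonic-derived arrays apart from the adult-derived ones. Of 11 tested, 3 were higher and 0 lower. Tfap2c, a factor of trophoblast and germ cells, was at 79.8, 112, 443 and 520.2 against 0.6, 2.1 and 27.2 (4.34 ± 0.84), and the trophoblast factors Elf5, at 6.1, 24, 17.8 and 21.5 against 1.1, 0.6 and 0.7 (1.86 ± 0.39), and Ascl2, at 6.4, 25.4, 34.3 and 20 against 8.3, 0.9 and 1.4 (1.60 ± 0.50), were called though dim. In iPS and ES cells Tfap2c was at 403 and 527.9 and Ascl2 at 15.1 and 29.9, but Elf5 at 0.2 and 0.3. Ascl2 was not called without replicate 2, 3 or 4 or the iPS-derived or ES-derived array (adjusted p = 0.0811 to 0.117). The number of placental genes called higher was 5 without replicate 1. The spongiotrophoblast gene Tpbpa was at 3.1, 0.4, 1325 and 687 against 0.5, 3.1 and 0.5, near 0 on the adult-derived pair, and was not called (adjusted p = 0.183). The mean log2(signal + 5) of the list was 6.78 and 6.73 on replicates 3 and 4, 3.50 and 3.91 on replicates 1 and 2, and 3.0 to 3.21 on the established arrays. Its summed signal ranged from 126 to 2947 on the fibroblast-derived and from 39.9 to 64.9 on the established arrays. Its part in the other results was not tested.

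**Figure D4:**
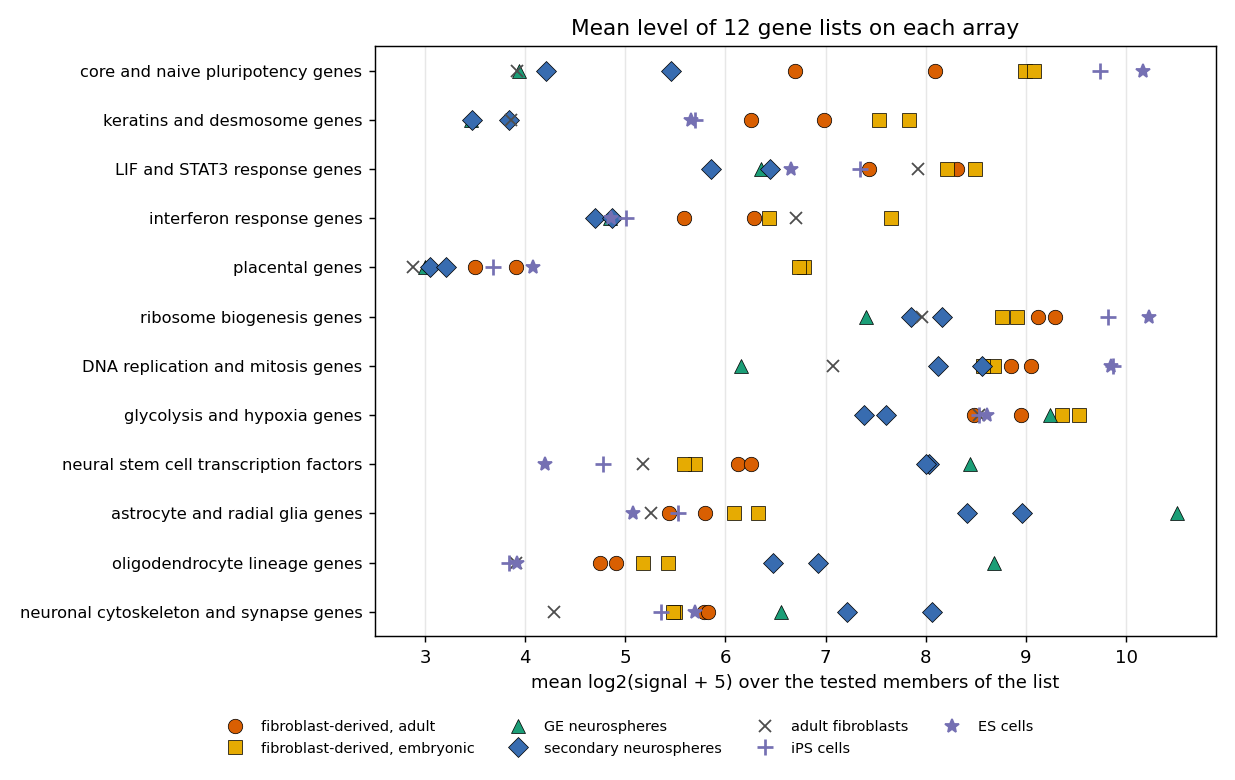
Mean log2(signal + 5) over the tested members of 12 gene lists on each array, with adult fibroblasts, iPS cells and ES cells as references. The pluripotency list reaches 6.69 to 9.08 on the fibroblast-derived arrays and 3.94 to 5.46 on the established ones, the astrocyte list runs the other way (5.44 to 6.33 against 8.41 to 10.5), and the placental list is high on both embryonic-derived arrays alone.

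Epithelial junction and keratin genes had the highest median of the 44 lists. Of 25 tested, 22 were higher and 0 lower, with a median of 3.87, and 21 were higher than GE and secondary neurospheres alike. The desmosomal cadherin gene Dsg2 was at 435, 455, 434 and 531 against 4.9, 6.6 and 13.5 (5.18 ± 0.25, adjusted p = 2.48e-05). Perp, needed for desmosomes, was at 1218, 1026, 1072 and 1173 against 23, 45.7 and 30.1 (4.93 ± 0.22), and the plakophilin gene Pkp1 at 312, 137, 133 and 214 against 0.9, 1.8 and 1.1 (4.94 ± 0.33). Esrp1, which directs epithelial splicing, was at 117, 238, 191 and 153 against 0.7, 0.2 and 2.4 (4.85 ± 0.30). These 4 genes were alike on adult-derived and embryonic-derived arrays, whereas the simple-epithelium keratin gene Krt8, at 169, 504, 1016 and 1607 against 18.6, 14.3 and 24.8 (4.70 ± 0.68), was lower on the adult-derived pair than on the embryonic-derived pair. The list averaged 6.26 on replicate 1, 6.98 on replicate 2, 7.54 on replicate 3 and 7.83 on replicate 4, above the iPS cells (5.69), the ES cells (5.65) and the adult fibroblasts (3.86).

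Promoters were read for short motifs, and those of 3 genes of this list are shown because they hold the letters CACCTG, a form of the E-box. Of 13650 genes tested, 10960 had a promoter in the RefSeq table (GRCm38.p6, 250 bases before to 50 after the start of transcription). The letters, on either strand (CACCTG or CAGGTG), stood in 21.7% of these genes, in 23.8% of the higher and 23.3% of the lower genes, and in 12 of the 15 genes of the keratin and desmosome list with a promoter. In all 21 motifs were searched and counted in several gene lists, and this motif and list were chosen after the counts were seen. Epcam, an epithelial adhesion gene, and the claudin gene Cldn4 are named here after their values were seen, at 692, 865, 1061 and 1355 against 48, 8.1 and 15.4 (5.32 ± 0.46) and 59.5, 166, 342 and 513 against 1.5, 5.4 and 9.8 (4.40 ± 0.68). The promoters read 5′ to 3′ on the gene's strand, with matches in capitals: Krt8 at chr15:102004293-102004592 on the minus strand, Epcam at chr17:87635729-87636028 on the plus strand and Cldn4 at chr5:134946885-134947184 on the minus strand.
Krt8: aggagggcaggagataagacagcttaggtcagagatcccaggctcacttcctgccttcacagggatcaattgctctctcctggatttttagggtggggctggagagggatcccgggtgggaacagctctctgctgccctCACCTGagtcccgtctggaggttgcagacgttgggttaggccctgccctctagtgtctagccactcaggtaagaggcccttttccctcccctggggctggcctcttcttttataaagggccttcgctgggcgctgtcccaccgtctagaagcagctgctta
Epcam: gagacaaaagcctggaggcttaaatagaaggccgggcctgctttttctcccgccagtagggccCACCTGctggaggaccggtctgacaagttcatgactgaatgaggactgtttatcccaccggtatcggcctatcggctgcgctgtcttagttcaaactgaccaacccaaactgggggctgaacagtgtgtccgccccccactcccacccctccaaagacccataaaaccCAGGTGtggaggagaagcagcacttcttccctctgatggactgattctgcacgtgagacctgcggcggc
Cldn4: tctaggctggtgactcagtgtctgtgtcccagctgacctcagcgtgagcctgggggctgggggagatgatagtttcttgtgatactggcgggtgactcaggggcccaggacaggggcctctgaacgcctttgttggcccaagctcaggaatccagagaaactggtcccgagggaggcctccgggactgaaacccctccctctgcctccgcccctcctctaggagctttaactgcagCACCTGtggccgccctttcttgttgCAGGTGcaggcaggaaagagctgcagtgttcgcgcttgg
Counted from the first base shown, the match starts at base 140 in Krt8, at bases 64 and 232 in Epcam and at bases 237 and 262 in Cldn4. A match describes the letters only.

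Mesenchymal genes had few calls. Of 33 tested, 5 were higher and 2 lower, fewer than the shares over all genes, although the median was 1.33. The fibronectin gene Fn1 was at 2187, 2364, 2711 and 2183 against 351, 264 and 471 (2.72 ± 0.20, adjusted p = 0.000113), and the calcium-binding protein gene S100a4 at 2167, 2247, 2686 and 2235 against 145, 19.3 and 108 (4.97 ± 0.56). Both were even across the 4 fibroblast-derived arrays. The collagen receptor gene Ddr2 was also higher (2.67 ± 0.40). The 2 lower members were the zinc finger factor genes Zeb1 and Zeb2, active in mesenchymal and neural cells. Zeb1 was at 213, 165, 238 and 267 against 1019, 1087 and 665 (-2.03 ± 0.23) and Zeb2 at 47.7, 47.4, 19.8 and 22.1 against 548, 143 and 140.3 (-2.63 ± 0.53). The collagen gene Col1a1 was at 14.6, 109, 133 and 63.4 against 2.8, 19.8 and 389, highest on the ES-derived array, and not called (adjusted p = 0.707), while it stood at 2250.3 in adult fibroblasts. The number of fibroblast and mesenchymal genes called higher was 3 without the iPS-derived array, replicate 2, replicate 3 or replicate 4 and 10 without the ES-derived array. Of 14 smooth muscle contractile genes 2 were higher (14.3%, below the 18.3% over all genes) and 0 lower. The number of smooth muscle contractile genes called higher was 1 without the GE array, the iPS-derived array, replicate 3 or replicate 4. The mean of the fibroblast and mesenchymal list in adult fibroblasts was 10.7, beside 6.45 to 7.95 on the fibroblast-derived and 5.19 to 8.06 on the established arrays. Among integrins and laminins, 8 of 23 were higher and 1 lower. Itgb4, the beta chain of the hemidesmosome integrin, was at 189.9, 154, 189 and 322 against 5.6, 2.4 and 1.1 (4.75 ± 0.32), and the laminin genes Lama4 (441, 927, 753 and 374 against 11.2, 5.3 and 55.6, 4.76 ± 0.60) and Lama5 (2.27 ± 0.32) were higher. Itgb8, an integrin of radial glia and astrocytes, was the one lower, at 21.4, 44.5, 15.6 and 41.1 against 2716, 1285 and 1071 (-5.54 ± 0.42). The number of integrins and laminins called higher was 5 without the iPS-derived array, replicate 3 or replicate 4. Of 12 basement membrane genes 3 were lower, Smoc1 (-4.29 ± 0.36), the agrin gene Agrn (-1.17 ± 0.22) and Col4a6 (-1.14 ± 0.29). Col4a6 was not called without replicate 3 or the ES-derived array (adjusted p = 0.0582 to 0.0671).

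Genes that respond to LIF through STAT3 were higher in 14 of 24, with 1 lower and a median of 2.43. Socs3, the feedback inhibitor of the pathway, was at 1306, 1716, 1529 and 1822 against 86.9, 77.1 and 241 (3.69 ± 0.37, adjusted p = 0.000369). The metalloproteinase inhibitor gene Timp1 was at 781, 946, 903 and 1089 against 25, 13.7 and 29.5 (5.11 ± 0.24), Socs2 at 568, 613, 533 and 639 against 44.3, 82.4 and 97.9 (2.96 ± 0.26) and the NF-kappaB co-factor gene Bcl3 at 157, 106, 63.8 and 92.8 against 0.5, 2 and 0.5 (4.14 ± 0.33). Replicate 1, the array without LIF, had the lowest Socs3 and Timp1 of the 4, the highest Bcl3 and a Socs2 within the range of the others, and it lay far above every established array in all 4 genes. The list mean was 7.43 on replicate 1, 8.22 to 8.49 on the other 3 and 5.86 to 6.45 on the established arrays. It was 7.92 in adult fibroblasts, 7.34 in iPS cells and 6.65 in ES cells, so these genes are not particular to the fibroblast-derived neurospheres. An effect of LIF cannot be told apart from that of origin and of the other factors. The kinase gene Jak2 was the one lower, at 148, 96.7, 115 and 135 against 229.5, 275 and 247 (-1.0 ± 0.19). Of 24 growth factor receptors and ERK feedback genes, 3 were higher and 3 lower (12.5% each, below the 18.3% and 16.7% over all genes). The neuregulin receptor gene Erbb3 was higher at 117, 277, 338 and 403 against 10.7, 15.7 and 12.3 (3.89 ± 0.41), and Fgfr2 was lower (-1.53 ± 0.44), together with Egfr and Fgfr3 above. Fgfr2 was not called without replicate 1, 2, 3 or 4 or the ES-derived array (adjusted p = 0.053 to 0.0685). The number of EGF and FGF receptors and ERK feedback genes called higher was 5 without the iPS-derived array.

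Interferon response genes were higher in 11 of 23, with 1 lower and a median of 1.65. The antiviral gene Oas1a was at 58.7, 159, 225 and 385 against 3.4, 4 and 3.3 (4.35 ± 0.55), the virus-tethering gene Bst2 at 279, 401, 547 and 888 against 24.7, 35.1 and 26.6 (3.86 ± 0.37) and Ifi35 at 302, 355, 390.4 and 652 against 11.3, 9.1 and 51.9 (4.13 ± 0.50). In all 3 replicate 1 was the lowest and replicate 4 the highest fibroblast-derived array. The RNA sensor gene Ddx58 (RIG-I) was more even, at 192, 197, 229 and 291 against 37.5, 27.3 and 52.9 (2.42 ± 0.26). Ifit2 was the one lower, at 6.8, 8.1, 9.8 and 25.6 against 30.6, 38.9 and 45.2 (-1.40 ± 0.38). Ifit2 was not called without replicate 2 or 3 or the iPS-derived or ES-derived array (adjusted p = 0.0623 to 0.0755). The list mean was 5.58 to 7.65 on the fibroblast-derived arrays and 4.70 to 4.87 on the established ones, beside 6.70 in adult fibroblasts and 5.01 and 4.86 in iPS and ES cells.

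The promoters of Oas1a and Bst2 are shown because they hold GAAANNGAAA (TTTCNNTTTC on the other strand), the core of the element through which interferon acts. These letters stood in 3.55% of the promoters of genes tested, in 4.25% of the higher and 3.03% of the lower genes, and in 10 of the 22 interferon genes with a promoter. The motif was one of the 21 searched and counted in several gene lists, and it was chosen with this list after the counts were seen. Matches are in capitals, and the 2 matches in each promoter overlap. Oas1a is at chr5:120907476-120907775 and Bst2 at chr8:71537423-71537722, both on the minus strand.
Oas1a: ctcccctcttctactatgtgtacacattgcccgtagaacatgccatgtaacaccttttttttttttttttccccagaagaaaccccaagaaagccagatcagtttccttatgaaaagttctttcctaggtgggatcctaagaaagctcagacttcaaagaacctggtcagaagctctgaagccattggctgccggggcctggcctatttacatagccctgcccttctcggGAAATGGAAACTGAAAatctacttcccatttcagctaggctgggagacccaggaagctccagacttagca
Bst2: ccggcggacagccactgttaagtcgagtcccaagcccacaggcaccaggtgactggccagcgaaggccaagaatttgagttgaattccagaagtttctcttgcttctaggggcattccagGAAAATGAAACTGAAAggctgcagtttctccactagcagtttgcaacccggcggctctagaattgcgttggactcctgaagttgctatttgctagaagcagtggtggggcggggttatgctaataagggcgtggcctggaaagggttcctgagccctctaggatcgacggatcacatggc
The matches start at bases 231 and 237 in Oas1a and at bases 121 and 127 in Bst2. The Bst2 promoter also holds CACCTG or its complement, which is left in lower case here.

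Retinoid genes were higher in part. Crabp2, which carries retinoic acid to its nuclear receptor, was at 1031, 1608, 1134 and 1577 against 2.8, 2.6 and 45.1 (6.52 ± 0.63). It stood at 33.9 in adult fibroblasts, 68.1 in iPS cells and 54 in ES cells, but at 2311 and 1192 in primary neurospheres of iPS and ES origin. Of 15 retinoic acid genes 5 were higher and 1 lower. The synthesis enzyme gene Aldh1a3 was at 102, 147, 136 and 217 against 2, 5.5 and 37.2 (3.36 ± 0.59), the degrading enzyme gene Cyp26a1 at 7.5, 49.7, 54.1 and 23.2 against 1.8, 0.9 and 2.1 (2.31 ± 0.55) and the receptor gene Rarg at 98.2, 96.3, 126 and 131 against 32.5, 20.7 and 35.7 (1.78 ± 0.25). Rxrg was lower with overlapping arrays (-1.42 ± 0.47, adjusted p = 0.0493). Rxrg was not called without replicate 1, 2, 3 or 4 or the iPS-derived or ES-derived array (adjusted p = 0.0587 to 0.153). Of 7 fatty acid and retinoid binding proteins 3 were higher and 2 lower. The number of fatty acid and retinoid binding proteins called higher was 1 without replicate 3 or replicate 4. Fabp5 was lower, at 3944, 1392, 1672 and 1501 against 6889.8, 5101 and 5679 (-1.60 ± 0.35), beside Fabp7.

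Positional genes did not separate the sides as a group. Of 17 forebrain patterning factors, 3 were lower (17.6%, close to the 16.7% over all genes) and 1 higher (5.88%, below the 18.3%). Meis1 was at 79.5, 53.8, 47.3 and 46.8 against 144, 433 and 393 (-2.29 ± 0.40) and Meis2 at 261, 225, 284 and 300.4 against 739, 847 and 399 (-1.23 ± 0.26). Dlx2, a factor of GE progenitors, was lower at 20.1, 3, 6.9 and 8.7 against 15.5, 52.4 and 41.8 with overlapping arrays (-1.50 ± 0.50, adjusted p = 0.0479). Dlx2 was not called without replicate 2, 3 or 4 or the iPS-derived or ES-derived array (adjusted p = 0.0902 to 0.15). The number of forebrain patterning factors called lower was 6 without the GE array. Zic2 was higher, at 228, 252, 314 and 188 against 25.7, 6.4 and 46.9 (3.23 ± 0.48). Of 27 Hox genes, 3 were higher and 0 lower, below the background share. Hoxd8 was at 163, 182, 113 and 146 against 6.9, 4.6 and 40.1 (3.15 ± 0.52) and 216 in adult fibroblasts, and Hoxd9 at 74.4, 71.5, 63.5 and 83.3 against 0.9, 1 and 28.2 (2.88 ± 0.59) and 31.7 in adult fibroblasts. Hoxd13, at 12.9, 7.6, 124 and 187 against 0.7, 1.6 and 0.8, was high on the embryonic-derived pair (adjusted p = 0.0423). Hoxd13 was not called without replicate 3 or 4 or the GE, iPS-derived or ES-derived array (adjusted p = 0.0794 to 0.0991). Without the GE array 5 Hox genes were lower and 2 higher.

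Of 18 ribosome biogenesis genes, 16 were higher and 0 lower, with a median of 1.16, and 14 without the GE array. The nucleolar genes Nolc1, at 632, 492, 434 and 422 against 127, 194 and 129 (1.70 ± 0.22, adjusted p = 0.00105), and Gnl3 (nucleostemin), at 1034, 1053, 863 and 724 against 349, 369.6 and 299.6 (1.41 ± 0.17), and the RNA polymerase I gene Polr1b, at 257, 199, 213 and 182 against 63.7, 69 and 60.4 (1.64 ± 0.18), were higher without overlap. Pes1 was higher (1.01 ± 0.16) but its other probe set had the opposite sign. Of 31 DNA replication and mitosis genes 3 were higher (9.68%, below the 18.3% over all genes) and 0 lower, and the median was 1.24. The licensing gene Cdt1 was at 1052, 916, 1017 and 924 against 80.9, 557 and 355 (1.92 ± 0.56), Mcm7 of the replicative helicase at 2572, 2287, 1931 and 1891 against 348, 1415 and 1140.3 (1.38 ± 0.44) and cyclin E1 (Ccne1) at 219, 207, 147 and 201 against 30.2, 90.2 and 98.4 (1.48 ± 0.38). The GE array was the lowest in each of them. Cdt1 was not called without replicate 1, 2, 3 or 4 (adjusted p = 0.0616 to 0.0685). Mcm7 was not called without replicate 1, 2, 3 or 4 or the ES-derived array (adjusted p = 0.0526 to 0.0911). Ccne1 was not called without replicate 2 (adjusted p = 0.0521). The mean of the list was 6.16 on the GE array, 8.12 and 8.56 on the secondary arrays and 8.57 to 9.05 on the fibroblast-derived ones. The number of DNA replication and mitosis genes called higher was 0 without replicate 2, 1 without replicate 1, replicate 3 or replicate 4, 7 without the GE array and 17 without the iPS-derived array. Without the GE array the median was 0.51. Scaling to a common median gave 10 such genes and the fit of all 12 arrays gave 27. Of 23 D cyclin, CDK inhibitor and p53 target genes, 6 were higher and 3 lower. Cyclin D1 (Ccnd1) was at 1998, 1599, 1814 and 1497 against 360.0, 1327 and 590.4 (1.38 ± 0.39). Ccnd1 was not called without replicate 1, 2 or 3 or the GE or ES-derived array (adjusted p = 0.0517 to 0.0782). Cyclin D2 (Ccnd2), at 2121, 1849, 3543 and 2873 against 1078, 2787 and 3462, was not called (95% interval -0.74 to 1.14). Cdkn2a, which encodes p16 and p19, was at 734, 1023, 899.5 and 839 against 162, 239 and 71.1 (2.58 ± 0.36), and Mdm2, a p53 target and antagonist, at 489, 529, 445 and 573 against 189, 263 and 255 (1.1 ± 0.17). The CDK inhibitor gene Cdkn1c was lower, at 141, 161, 511 and 334 against 1079, 1363 and 894 (-2.11 ± 0.44).

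Mycn, a driver of progenitor growth, gave a result that depends on the probe set. The probe set that stands for the gene here read 141, 451, 433 and 309 against 61.1, 124 and 142 (1.52 ± 0.45, adjusted p = 0.0323), with replicate 1 at the level of the ES-derived array. Mycn was not called without replicate 2, 3 or 4 or the GE or iPS-derived array (adjusted p = 0.06 to 0.0865). Another read 6645, 5809, 5376 and 5429 against 22.8, 64.3 and 2.1, a difference of 7.92, and the other, dim one 12.1, 57.9, 46.8 and 25.1 against 2.6, 23.3 and 19.8, a difference of 1.04. All 3 had the same sign, but their size differed by far. Of 9 genes of the Myc family and its partners 2 were higher and 2 lower (22.2% each, beside 18.3% and 16.7% over all genes). The number of Myc family and partners called higher was 0 without the iPS-derived array, replicate 2, replicate 3 or replicate 4 and 1 without the ES-derived array. The number of Myc family and partners called lower was 0 without replicate 3 and 1 without the GE array, the iPS-derived array, replicate 1, replicate 2 or replicate 4. Mycl was lower, at 52, 55.6, 22.4 and 17.7 against 302, 114 and 94.8 (-2.0 ± 0.51). Mycl was not called without replicate 3 (adjusted p = 0.0509).

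Chromatin genes were higher in 7 of 23, with 1 lower. The Polycomb genes Suz12, at 827, 1038, 1267 and 1355 against 357, 495 and 363 (1.45 ± 0.21), Eed, at 774, 824, 1018 and 1079.7 against 249, 413 and 399 (1.40 ± 0.22), and Ezh1, at 116, 128, 159.7 and 179 against 44.6, 32.8 and 46.1 (1.70 ± 0.23), were higher without overlap. Dnmt3a, a de novo DNA methyltransferase, was at 226, 193, 278 and 221 against 558, 487 and 626 (-1.27 ± 0.17), and 1 of its 4 other probe sets had the opposite sign. Of 18 subunits of BAF complexes, which remodel nucleosomes, 2 were lower and 2 higher (11.1% each, below the 16.7% and 18.3% over all genes). Smarcd3 (BAF60c) was at 27.2, 24.4, 29.5 and 29.9 against 203, 223 and 209 (-2.73 ± 0.18, adjusted p = 9.07e-05), and Smarcc2 (BAF170), a subunit of neural progenitors, at 78.9, 78.5, 62 and 79.5 against 198, 241 and 203 (-1.46 ± 0.18). Smarcd2 (BAF60b) was at 1276, 978, 913 and 903 against 131, 148 and 314 (2.43 ± 0.30) and Actl6a (BAF53a), the subunit of dividing progenitors and ES cells, at 710.3, 813, 864 and 764 against 267, 444 and 349 (1.17 ± 0.19). The paralogues Smarcd2 and Smarcd3 thus differed in opposite directions. Arid1a, at 785, 744, 812 and 712 against 680.2, 679 and 706, was not called, with a 95% interval of -0.12 to 0.42. Its 4 fibroblast-derived signals lay above the 3 established ones by a small margin, and its other, dimmer probe set overlapped. Of 24 imprinted genes 7 were lower and 2 higher, among them Ndn (436, 309, 265 and 207 against 1318, 2586 and 3385, -2.92 ± 0.36), Gnas (-0.69 ± 0.13) and, higher, Phlda2 (31.1, 59.2, 169 and 333 against 0.6, 3.3 and 6, 3.76 ± 0.73).

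Of 25 glycolysis and hypoxia genes, 8 were higher and 1 lower. The number of glycolysis and hypoxia genes called higher was 17 without the GE array. The glucose transporter gene Slc2a1 was at 1675, 2736, 3445 and 3601 against 1129, 345 and 466 (2.27 ± 0.43), hexokinase 2 (Hk2) at 694, 807, 908 and 949.6 against 221, 185 and 119 (2.27 ± 0.23) and pyruvate kinase (Pkm) at 1985, 2057, 2182 and 2076 against 1013, 585 and 456 (1.67 ± 0.25). The mean of this list was 9.24 on the GE array and 7.38 and 7.61 on the secondary ones, against 8.48 to 9.53 on the fibroblast-derived arrays. Aldoc, above, was the one lower. Of 21 sterol and fatty acid synthesis genes, 3 were lower (14.3%, below the 16.7% over all genes) and 0 higher. Among the 3 were Hmgcs1 of sterol synthesis, at 2525, 2493, 2160.1 and 2064 against 4774, 4127 and 3834 (-0.88 ± 0.13), and the desaturase gene Scd2 (-0.88 ± 0.18). Probe sets of Hmgcs1 disagreed in sign. Of 23 respiratory chain genes, 4 were lower (17.4%, close to the 16.7% over all genes) and 1 higher (4.35%, below the 18.3% over all genes). Ppargc1a (PGC-1alpha), an activator of mitochondrial genes, was at 16.9, 9.3, 7.7 and 8.2 against 189, 101 and 70.5 (-2.94 ± 0.37), and the complex I gene Ndufs3 was lower by a small amount (-0.65 ± 0.17). The number of mitochondrial respiratory chain genes called lower was 2 without the GE array, replicate 2 or replicate 4.

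For 4345 of the genes that were not called, the 95% interval of the difference lay within -1 and 1. Among uncalled listed genes with a mean signal of at least 200 on both sides, the intervals that reached least far from 0 belonged to Arid1a (-0.12 to 0.42), Ndufb8 (-0.40 to 0.16), Cox7a2 (-0.20 to 0.34), Atp5a1 (-0.34 to 0.27), Atp5b (-0.38 to 0.23), Uqcrc2 (-0.39 to 0.26), Arid1b (-0.39 to 0.27), Ccng1 (-0.38 to 0.33), Kdm2b (-0.41 to 0.43) and Maml1, given above. These intervals hold for the probe set that stands for each gene. Another of Ccng1 read 497, 467, 443 and 469.9 against 276, 192 and 218, a difference of 1.04 without overlap, and a much dimmer one of Ndufb8 38.1, 33.9, 31.5 and 20.9 against 1.7, 2.7 and 9.7 (1.96). The ATP synthase gene Atp5a1 was at 2503, 2204, 2022 and 1979 against 2078, 2479 and 2124, and the cytochrome oxidase gene Cox7a2 at 4461, 3685, 3633 and 3647 against 3785, 3673 and 3533. In Atp5a1 and Cox7a2 the signals of the sides interleave.

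Taking the established neurospheres as 1 group hides genes in which GE and secondary spheres lie on opposite sides of the fibroblast-derived ones. In 29 genes both contrasts were called with opposite signs, 21 above GE and below secondary and 8 the other way. The heparan sulfatase gene Sulf1 was at 129, 357, 196 and 160.4 against 5.2 on the GE array and 2141 and 3086 on the secondary ones, a difference of 4.30 ± 0.48 from GE (adjusted p = 0.000578) and -3.68 ± 0.37 from secondary (adjusted p = 0.00027). The guidance ligand gene Slit2, at 48.6, 129.9, 123 and 247 against 16 and 615 and 1373, and the Notch ligand gene Jag1, at 434, 352, 315 and 255 against 72.6 and 557 and 716, had the same order. The ventral midline factor Foxa1 was at 6.6, 14.8, 7.5 and 11.7 against 0.7 and 425 and 685, dim on the fibroblast-derived arrays and bright on the secondary ones alone. Hoxb3, at 186, 82.6, 13.2 and 21.9 against 5.7 and 452 and 657, was higher on the adult-derived than on the embryonic-derived arrays. Mgll, a lipase of endocannabinoids, had the reverse order, at 50.2, 180.4, 333 and 327 against 840.4 and 25.4 and 25.3, a difference of -2.20 ± 0.55 from GE and 2.60 ± 0.42 from secondary. The GE contrast rests on 1 array, assumed to vary like the other groups. None of these 29 genes was called with the established arrays as 1 group, and those named were chosen after their values were seen.

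**Figure D5:**
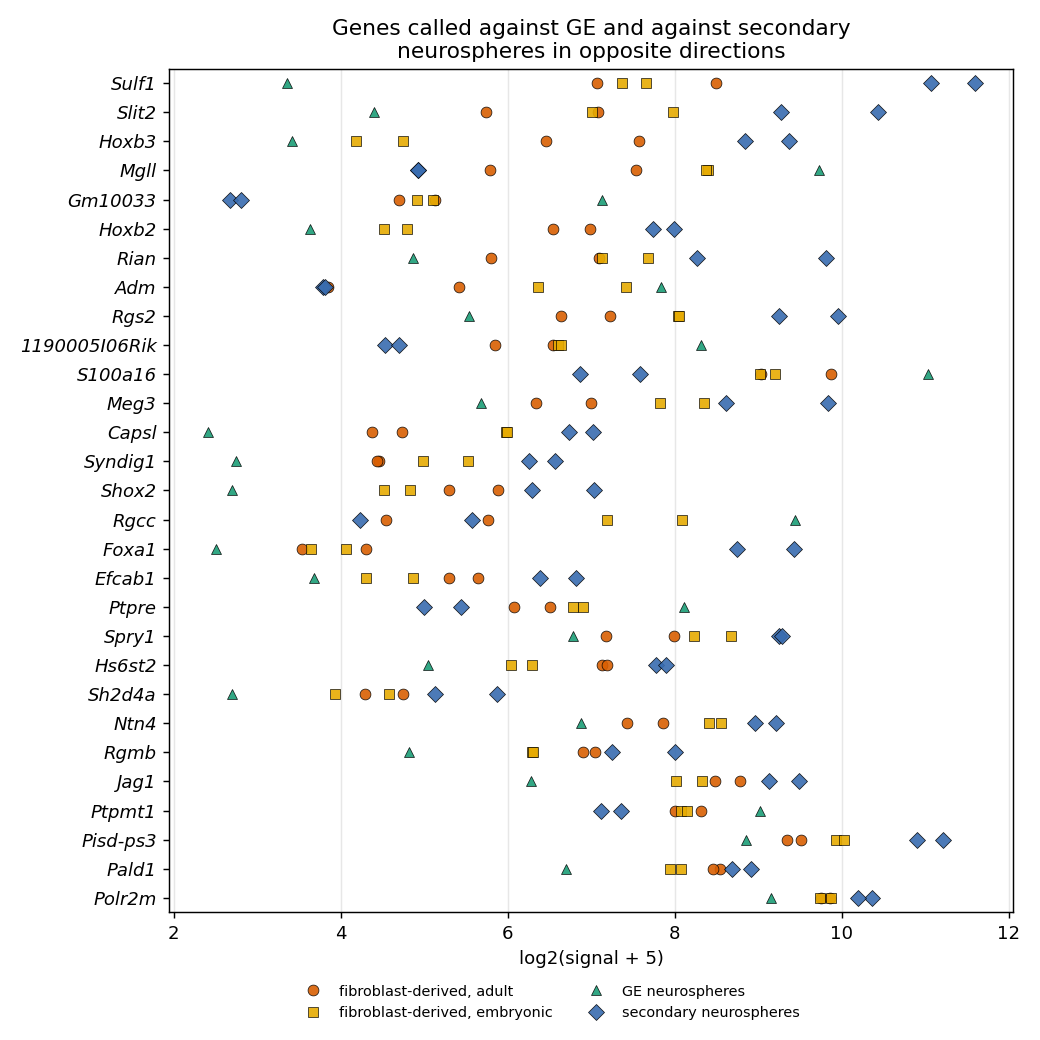
Signals of the 29 genes called against GE and against secondary neurospheres in opposite directions, each point 1 array, on a log2(signal + 5) axis. The fibroblast-derived symbols lie between the GE triangle and the secondary diamonds in every gene but Rgcc, for Sulf1 at 129 to 357 between 5.2 and 2141 and 3086.

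Markers of other cell types were checked on all 7 arrays. Of 12 macrophage and blood cell markers 5 were higher, with a summed signal of 339 to 2234 against 82.8 to 164. Gata1, among those called, was under 20 on all 7 arrays. The lysozyme gene Lyz2 was at 11, 22.7, 1434 and 42.3 against 7, 6.5 and 41.9 and not called (adjusted p = 0.316). It was bright on replicate 3 alone, where it adds 1434 to the sum. Cd68 was at 25.2, 41.4, 150.1 and 205 against 15.1, 12.3 and 14.2 (2.13 ± 0.66), and Laptm5 at 151, 108, 113 and 135 against 4.5, 4.4 and 9.1 (3.60 ± 0.25), though probe sets of Laptm5 disagreed in sign and it was at 356 in iPS cells and 301 in ES cells. Cd68 was not called without replicate 3 or 4 or the GE, iPS-derived or ES-derived array (adjusted p = 0.0725 to 0.0994). The number of macrophage and blood cell markers called higher was 2 without the GE array, the iPS-derived array, the ES-derived array or replicate 3 and 3 without replicate 2 or replicate 4. Of 14 endothelial and pericyte markers 5 were higher, summing to 690.3 to 1645 against 298 to 618. The angiopoietin receptor gene Tek was at 243, 249, 364 and 854 against 4.3, 1.5 and 3.9 (5.53 ± 0.44, adjusted p = 0.000142) and the pericyte gene Rgs5 at 122, 61.5, 443 and 253 against 3, 11.5 and 10.8 (3.79 ± 0.63), bright on all 4 arrays. The endothelial genes Eng, at 77.7, 120.4, 59.1 and 65.9 against 17.3, 18.6 and 10.3, and Esam, at 48.7, 62.8, 27.4 and 13.8 against 7.5, 6.6 and 12.4, were also higher. Others, Cdh5, Pecam1 and Kdr, were under 61 on all 7. The number of endothelial and pericyte markers called higher was 3 without the GE array, the iPS-derived array, the ES-derived array, replicate 1 or replicate 3. Of 14 neural crest and Schwann cell markers 4 were higher (1158 to 1727 against 484 to 1266), with Tfap2a, a factor of ectoderm and neural crest, at 209, 379, 372 and 379.5 against 17.2, 48.9 and 8.1 (3.72 ± 0.47) and Foxd3, which pluripotent cells also express, at 10.2, 51.9, 61.5 and 61.4 against 1.4, 6 and 6.4 (2.25 ± 0.56). Foxd3 was not called without replicate 3 (adjusted p = 0.0503). The number of neural crest and Schwann cell markers called higher was 2 without replicate 3. Of 9 ependymal and choroid plexus markers 2 were higher and 1 lower (211 to 480.3 against 151 to 287), with Folr1 at 54.7, 139, 289.6 and 317 against 6.9, 20 and 51.4 (2.72 ± 0.70) and Ttr under 20 on all 7 arrays. Folr1 was not called without replicate 3 or 4 or the GE or iPS-derived array (adjusted p = 0.0505 to 0.056). The number of ependymal and choroid plexus markers called higher was 0 without replicate 3 or replicate 4 and 1 without the GE array or the iPS-derived array. The part of these markers in the other results was not tested.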

How the data were processed

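Gene expression was measured in 12 mouse cultures, 1 Affymetrix array each, and 7 arrays enter the comparison. The deposited values are MAS5 intensity signals; the submitters' processing notes name MAS5 and Affymetrix Expression Console 1.1 as the authors' tools, and other steps are not given in the sources used here. The 2% trimmed mean of every deposited array is 100, a common scale that holds the average array level equal and cannot show a shift of all genes at once.

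Control probe sets (64 of 45101) were left out, and 34945 probe sets have 1 gene symbol in GEO's platform annotation, 932 several and 9160 none; those with several or none were not named. A probe set was kept where it reached a signal of 20 on at least 1 of the 12 arrays, and a gene was represented by its kept probe set of highest mean log2(signal + 5) over the 12, which gave 13650 genes. The test was limma (R 4.3.3, limma 3.58.1) on log2(signal + 5) with an intensity trend, over the 7 arrays, with Benjamini-Hochberg adjustment over all genes and a threshold of 0.05. A second fit, of all 12 arrays in groups by origin, compared the same fibroblast-derived arrays with GE and with the secondary neurospheres; with 1 GE array, it assumes that array to vary like the others. On simulated data of the same 13650 genes, the fit called 14, 36, 44 and 41 of 50 genes changed by 1, 2, 3 and 4 on the log2 scale, 0 with the wrong sign, and 11 unchanged genes. The simulation changed few genes and drew the arrays of a side independently, whereas 34.9% of genes were called in the data. It therefore does not give the power or the false calls of this comparison.

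Genes were named by rule: the 12 highest and 12 lowest differences among bright, non-overlapping genes called against GE and secondary neurospheres alike, up to 4 called members of each list by adjusted p and members called the opposite way, a fixed set of markers, and uncalled genes with intervals close to 0. The members and lists were chosen with earlier results of these data known. The 44 lists hold 1006 genes, of which 873 were tested. Promoters are those of RefSeq, GRCm38.p6. Alternatives varied the normalization, the pseudocount, the filter, the choice of probe set, the model and the arrays.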

Additional observations from a re-analysis of the deposited data

Results flagged for a closer look

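In 17 of 226 named genes 1 fibroblast-derived array stood far from the other 3. The measure is the gap from that array to the nearest of the others, divided by the range of all 4, and a gene is listed above Dixon's critical value for 4 samples; chance flags about 1 in 20 groups, and no explanation was weighed. Replicate 1 stood apart for Cox7a2 (0.931), Fgfr2 (0.848), Foxd3 (0.894), Gata6 (0.832), Lfng (0.882), Nodal (0.856), Sall4 (0.865), Slc25a18 (0.84) and Tfap2a (0.966). It was low for Nodal, Sall4, Gata6, Foxd3 and Tfap2a, genes that were higher in the fibroblast-derived neurospheres: Tfap2a read 209 there and 372 to 379.5 on the other 3 arrays. Replicate 2 stood apart for Cacng4 (0.88), Cntn1 (0.941), Ddr2 (0.87), Pou3f3 (0.937) and Spon1 (0.906). Replicate 3 stood apart for S100a4 (0.832) and Smarcc2 (0.949), and replicate 4 for Fst (0.848).

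The difference from the fibroblast-derived neurospheres was unlike for GE and for secondary neurospheres in 29 genes, and the 5 whose smaller difference, of that from GE and that from secondary neurospheres, was largest in size are given as the secondary minus the GE level on the log2 scale. It was 7.98 for Sulf1, 5.46 for Slit2, 5.68 for Hoxb3, -4.80 for Mgll and -4.39 for Gm10033. Each was called against GE and against secondary neurospheres with opposite signs, and the GE level rests on 1 array.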

How the results depend on the processing

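The counts were stable under most alternatives. Testing every probe set gave 7762 calls, 3829 higher and 3933 lower, 7551 of them without overlap, because more features were tested. With the adult-derived arrays as the only fibroblast-derived ones, 2308 genes were called, 1148 higher and 1160 lower, all 2308 without overlap. With the embryonic-derived arrays as the only ones, 3680 were called, 1997 higher and 1683 lower. Both settings use fewer samples than the main fit, and why they differ from each other was not tested. Leaving out each array in turn gave 3370 to 4653 calls. The number called against GE and against secondary neurospheres in the same direction ranged from 1622 to 2340 over leaving out each fibroblast-derived or secondary array, an alternative chosen after seeing the data, and was 1622 without the iPS-derived and 1631 without the ES-derived array. Scaling to a common median moved the share of calls that were higher from 52.3% to 58.4%.

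Over 226 named genes and all alternatives, 4734 values were computed: 4518 counted as the same, 183 were no longer called, 30 were newly called and 3 reversed. A change of sign was counted as a reversal only where the main or the alternative fit called the gene. Changes of sign in genes that both fits left uncalled are among the 4518. Mbp changed to 1.36 with a pseudocount of 1, where another of its disagreeing probe sets represents it. Ndufb8 changed to 0.92 with the mean of probe sets, and Jag1, which is not called, ranged from -0.91 without the GE array to 0.69 without the ES-derived array; the causes were not tested. No paired analysis was possible because the sides share no culture, line or batch by their labels. With 4 arrays against 3, differing in origin and medium, an effect of medium, age of the source or line cannot be told apart from that of the side, and MAS5 signals under 20 are too dim to rank.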

Other observations

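The 4 genes named here lie outside the naming rule and were picked after their values were seen. Hbb-y, an embryonic beta-type globin gene, read 5046, 1102, 239 and 54.4 on replicates 1 to 4 and 0.1, 0.2 and 3.4 on the GE, iPS-derived and ES-derived arrays, and it was at or under 8 on every other array of the series. It was higher in the fibroblast-derived neurospheres by 6.46 ± 1.32 on the log2 scale (SE, limma, adjusted p = 0.00781), with a wide spread between the 4 arrays.

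The other 3 were dim on the established arrays. Krtdap, a keratinocyte differentiation gene, read 275, 156, 223 and 376 against 5.9, 2.4 and 0.7, a log2 difference of 5.02 ± 0.36. The dermokine gene Dmkn read 161, 391, 403 and 1081 against 4.6, 4.3 and 2.6 (5.56 ± 0.55), and Slurp1, a secreted protein of keratinocytes, 749.5, 155, 339 and 388 against 10.7, 4.1 and 1.5 (5.20 ± 0.53). Krtdap, Dmkn and Slurp1 were under 20 on the adult skin fibroblast array and on the iPS and ES cell arrays.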
